A study of Mus musculus with 6 samples.

Results

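The 39 genes described here encode the MHC molecules of the mouse, the proteins that load them with peptide and the factors that switch their genes on. They were chosen by symbol and by function from 39179 genes in the deposited count table. The rule uses no measured value, though earlier results of these data were known when it was made. Of the 39, 24 are class I genes (heavy chains, class I-like presenters, the light chain, the loading machinery and 1 transactivator), 12 are class II genes and 3 encode the RFX complex, which serves both. The mouse MHC on chromosome 17 holds 24 of them, and the rest lie on 9 other chromosomes.

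RNA was measured in cortical thymic epithelial cells (cTEC) of untreated *Cxcl12*::DsRed knockin mice, which report the chemokine gene *Cxcl12* by red fluorescence. Per the methods, the mice were on a C57BL/6 background and used at 10 weeks of age. Cells were sorted as CD45- EpCAM1+ UEA1- Ly51+, then into Cxcl12DsRed- and Cxcl12DsRed+ cTEC, and neither MHC class I nor MHC class II staining was part of these gates. There were 3 experiments, called A, B and C, and each yielded 1 Cxcl12DsRed- and 1 Cxcl12DsRed+ library, 6 libraries in all. How many mice went into a library, and whether the reporter allele was on 1 or both chromosomes, is not given in the sources used here, so the p-values measure only the spread between these libraries.

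The libraries held between 34574900 and 51042679 counts assigned to genes, and the DsRed reporter itself had 580 to 1129 counts in the Cxcl12DsRed- libraries and 45495 to 79903 in the Cxcl12DsRed+ libraries. Levels are given in CPM, the standard scaling of counts to library size, with library sizes adjusted by the trimmed mean of M-values. Every one of 12 cTEC marker genes had counts in all 6 libraries, with a summed level of 6191 to 9580 CPM in Cxcl12DsRed- and 12746 to 23698 CPM in Cxcl12DsRed+ cTEC. *Cd83* and *Dll4* had only 3 counts each in Cxcl12DsRed- of experiment B. The Cxcl12DsRed- sum was mostly *Krt8*, *Krt18* and *Ctsl* (means of 2934, 2635 and 1874 CPM). *Psmb11* had means of 27.6 CPM in Cxcl12DsRed- and 698 CPM in Cxcl12DsRed+, while *Epcam* went the other way (197 and 89.4 CPM). Some libraries stood apart in markers of other cells. The sum of 10 endothelial genes was 5661 CPM in Cxcl12DsRed+ of experiment C, against 736 to 754 CPM in the other Cxcl12DsRed+ libraries and 133 to 208 CPM in Cxcl12DsRed-. The sum of 8 tuft cell genes was 526 to 2898 CPM in Cxcl12DsRed-, highest in experiment A, and 34.4 to 41.1 CPM in Cxcl12DsRed+. All 11 thymocyte genes were highest in Cxcl12DsRed+ of experiment B, with a sum of 344 CPM against 42.5 to 97.0 CPM in the other 5 libraries. The sum of 8 fibroblast and pericyte genes was 3789 to 4819 CPM in Cxcl12DsRed- and 1761 to 1969 CPM in Cxcl12DsRed+. Its largest part was *Dcn*, with means of 3226 and 1212 CPM. The log2 fold change was above 0 for 6 of the 8 genes. *Pdgfrb* (means of 24.9 and 74.0 CPM) and *Rgs5* (75.9 and 257 CPM) went the other way. In such bulk libraries fewer cells of a type and less RNA per cell cannot be told apart.

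MHC molecules hold peptides at the cell surface for T cell receptors to read, and in the thymic cortex the peptides shown by cTEC decide which thymocytes are positively selected. Class I molecules pair a heavy chain with beta-2 microglobulin and take peptides that the TAP transporter brings into the endoplasmic reticulum, and they select CD8+ T cells. Class II molecules pair an alpha with a beta chain, travel with the invariant chain to endosomes and exchange its remnant for peptide there, and they select CD4+ T cells. Their promoters carry an X box, bound by the RFX complex, and a Y box, bound by NF-Y. On this platform CIITA acts at class II genes and NLRC5 at class I genes.

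That shared promoter plan can be read in the reference sequence. RefSeq promoter windows of GRCm38.p6, from 250 bases before to 50 bases after the transcript start, were at hand for 29 of the 39 genes, and for *Cd1d1*, *Cd74*, *Ciita*, *H2-Ab1*, *H2-Q1*, *H2-T24*, *Nlrc5*, *Rfxap*, *Tap2* and *Tapbpl* none was used here. An X box core (ACNGATG) followed on the same strand by a Y box (ATTGG), with 5 to 30 bases between, was found in 9 of the 29 windows, searching both strands. Of all 27025 genes with such a window, 61 or 0.226% held this pair. The windows below show it in capitals, 5′ to 3′ on the strand of the gene, with 5 class I heavy chain genes first and 4 class II genes after them.
H2-D1 (chr17:35262978-35263032, plus strand): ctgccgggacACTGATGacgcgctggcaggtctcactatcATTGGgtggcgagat
H2-Q4 (chr17:35379498-35379552, plus strand): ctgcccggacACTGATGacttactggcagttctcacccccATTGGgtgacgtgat
H2-Q6 (chr17:35424732-35424785, plus strand): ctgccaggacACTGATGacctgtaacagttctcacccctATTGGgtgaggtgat
H2-Q7 (chr17:35439076-35439129, plus strand): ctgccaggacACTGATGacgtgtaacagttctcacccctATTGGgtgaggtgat
H2-M3 (chr17:37270173-37270227, plus strand): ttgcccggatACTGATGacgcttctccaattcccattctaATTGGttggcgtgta
H2-Eb1 (chr17:34305769-34305822, plus strand): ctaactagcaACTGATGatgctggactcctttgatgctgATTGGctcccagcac
H2-Eb2 (chr17:34325536-34325589, plus strand): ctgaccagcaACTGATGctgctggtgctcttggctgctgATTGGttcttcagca
H2-DMb1 (chr17:34153090-34153144, plus strand): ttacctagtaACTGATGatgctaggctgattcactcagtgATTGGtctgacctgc
H2-DMb2 (chr17:34145119-34145173, plus strand): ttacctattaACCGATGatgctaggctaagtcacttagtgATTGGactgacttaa

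In all 9 the distance from the first base of the X core to the first base of the Y box was 29 or 30 bases, in class I and class II genes alike. The pair lay at different distances from the transcript start, with the X core between 51 bases (*H2-M3*) and 129 bases (*H2-Eb2*) before it. Taken singly the letters are common. The X core alone was in 11.2% of all windows and in 11 of the 29 member windows, and the Y box alone in 41.1% of all windows and in 25 of the 29. A match is a description of letters and not a measured binding site, and a window without a match says only that these letters are not in it.

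Some of the class I promoters also carry kB motifs, the sites of NF-kB factors. The motif GGGNNTCCC, on either strand, was in 6.44% of all windows and in 6 of the 29 member windows, those of *H2-K1*, *H2-D1*, *H2-Q6*, *H2-Q7*, *H2-Q10* and *Calr*. Both classical heavy chain genes held 2 matches, which are in capitals in these windows, shown because *H2-K1* and *H2-D1* lead the class I results.
H2-K1 (chr17:34000434-34000483, minus strand): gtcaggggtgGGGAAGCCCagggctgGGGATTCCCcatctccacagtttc
H2-D1 (chr17:35262898-35262947, plus strand): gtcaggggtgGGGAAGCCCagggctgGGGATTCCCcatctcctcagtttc

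The motif AAANNGAAA, a core shared by many sites of interferon regulatory factors, was in 12.1% of all windows and in 8 of the 29 member windows (*H2-T22*, *H2-T23*, *Mr1*, *B2m*, *Erap1*, *H2-DMa*, *H2-Oa* and *Rfx5*).

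**Figure D1:**
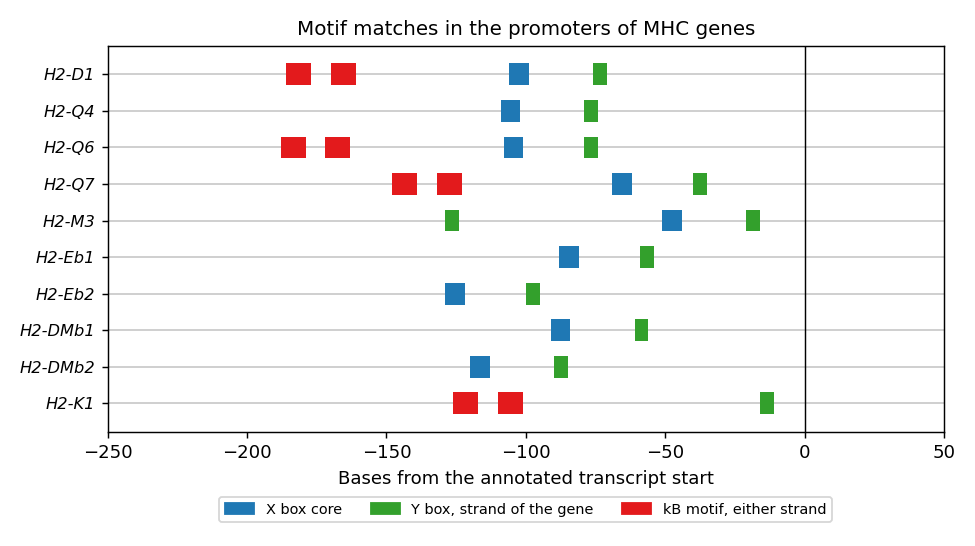
Positions of the X box core, the Y box and the kB motif in the 9 promoters with an X and Y pair and in that of H2-K1, in bases from the annotated transcript start (vertical line). The X to Y distance is 29 or 30 bases in each of the 9, while the pair as a whole slides between genes.

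The comparison of the subsets asked whether cells sorted as Cxcl12DsRed- cTEC differ from Cxcl12DsRed+ cTEC in the RNA of their antigen presenting machinery. Of the 39 genes, 38 had enough counts for a test. *H2-Q1*, a non-classical class I gene, had 0 to 11 counts per library and was not tested. None of the 38 was called higher and none lower in Cxcl12DsRed- cTEC at an adjusted p of 0.05 by edgeR's quasi-likelihood test, against 0.449% of the 15576 genes tested that were called higher and 0.173% that were called lower. Adjusted p-values of the 38 ran from 0.322 to 0.997. At an unadjusted p under 0.05 there were 2 of the 38, *H2-Q10* and *Cd1d1*, where 11.8% of all genes tested passed. The likelihood ratio test of edgeR, which called 5.65% of all genes tested, called 0 of the 38, and so did DESeq2 and limma with voom. The shares of all genes that DESeq2 and voom called are not given here, so their counts have nothing to be set against.

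For most of these genes the data also bounded the difference. The 95% interval of the fold change lay wholly within 2-fold in either direction for 21 of the 38 genes, against 20.1% of all genes tested. The intervals of the 38 had a median width of 1.3 on the log2 scale, against 2.73 over all genes tested. All genes tested were not matched to the 38 in level, and some of the 38, such as *Cd74* and *H2-Ab1*, were among the highest genes. The log2 fold changes of the 38, Cxcl12DsRed- relative to Cxcl12DsRed+, had a median of 0.14, against 0.02 over all genes tested. Of the 38, 25 lay above 0. By class, the median was 0.27 for the 23 class I genes tested and 0.02 for the 12 class II genes.

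**Figure D2:**
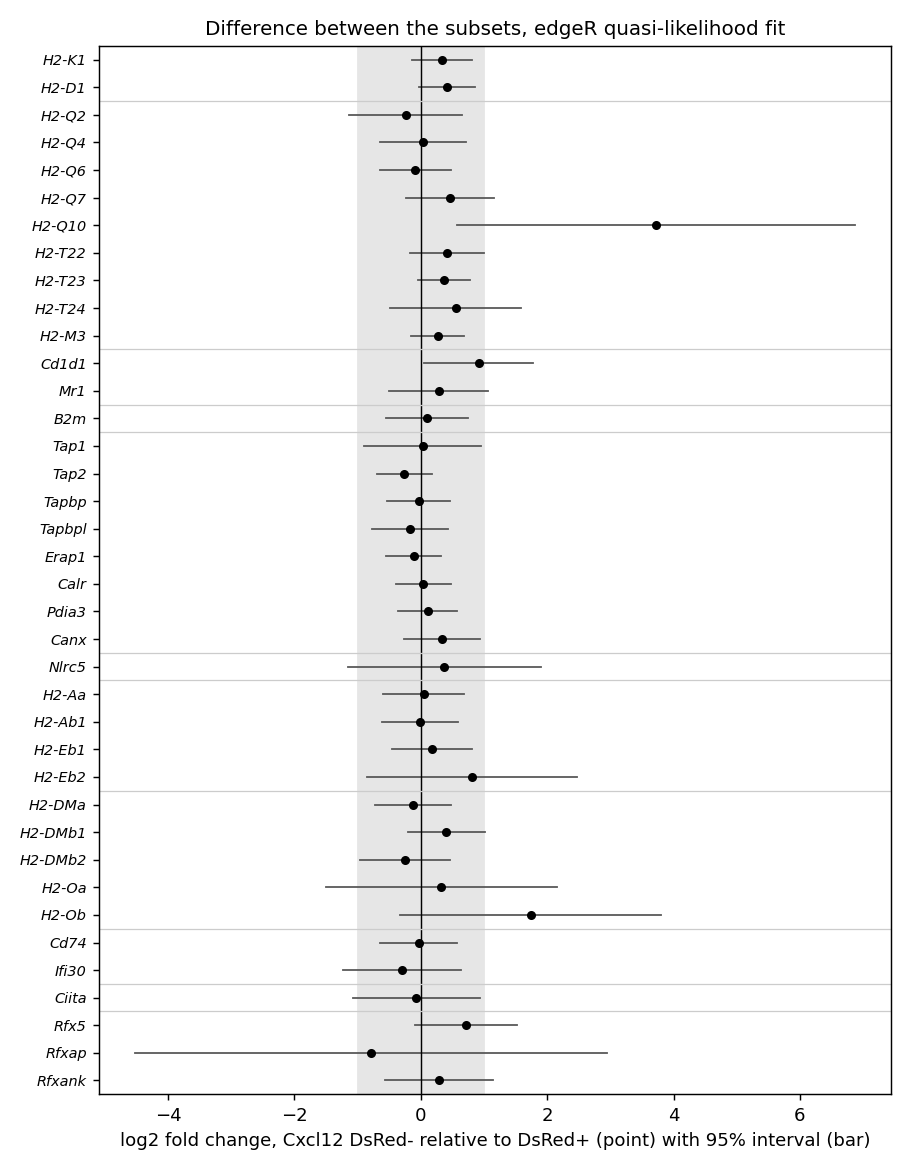
Log2 fold change of the 38 tested genes, Cxcl12DsRed- relative to Cxcl12DsRed+, as points with 95% intervals as bars, and a grey band for 2-fold in either direction. The intervals of 21 genes stay inside the band, only those of H2-Q10 and Cd1d1 leave out 0, and no gene passed an adjusted p of 0.05.

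MHC RNA was a large share of the message in both subsets. The 39 genes together took 5.17% to 7.64% of all counts in genes across the 6 libraries. *Cd74*, the invariant chain, was the gene with the highest mean CPM of all in both subsets, *H2-Ab1* ranked 3 in Cxcl12DsRed- and 2 in Cxcl12DsRed+, and *H2-D1* ranked 4 in both. Per kilobase of exon, the scale on which genes can be compared, *Cd74* ranked 3 and 2, *B2m* 4 and 4, *H2-Ab1* 7 and 6 and *H2-D1* 12 and 14. On that scale *Cd74* reached 9449 and 9680 CPM per kilobase, *B2m* 7640 and 7109, *H2-Ab1* 5308 and 5329.8, *H2-D1* 3428 and 2562, and *H2-K1* 2038 and 1611. At the other end *Nlrc5* had 1.83 and 1.42 CPM per kilobase and *Ciita* 19.3 and 20.3. *Ciita* lay above the class II genes *H2-Eb2* (7.92 and 4.52) and *H2-Ob* (6.99 and 2.09) and below the other class II genes, and *Nlrc5* lay above *H2-Q10* (0.828 and 0.0621) and *H2-Q1* (0.0389 and 0.0133) and below the other heavy chains.

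**Figure D3:**
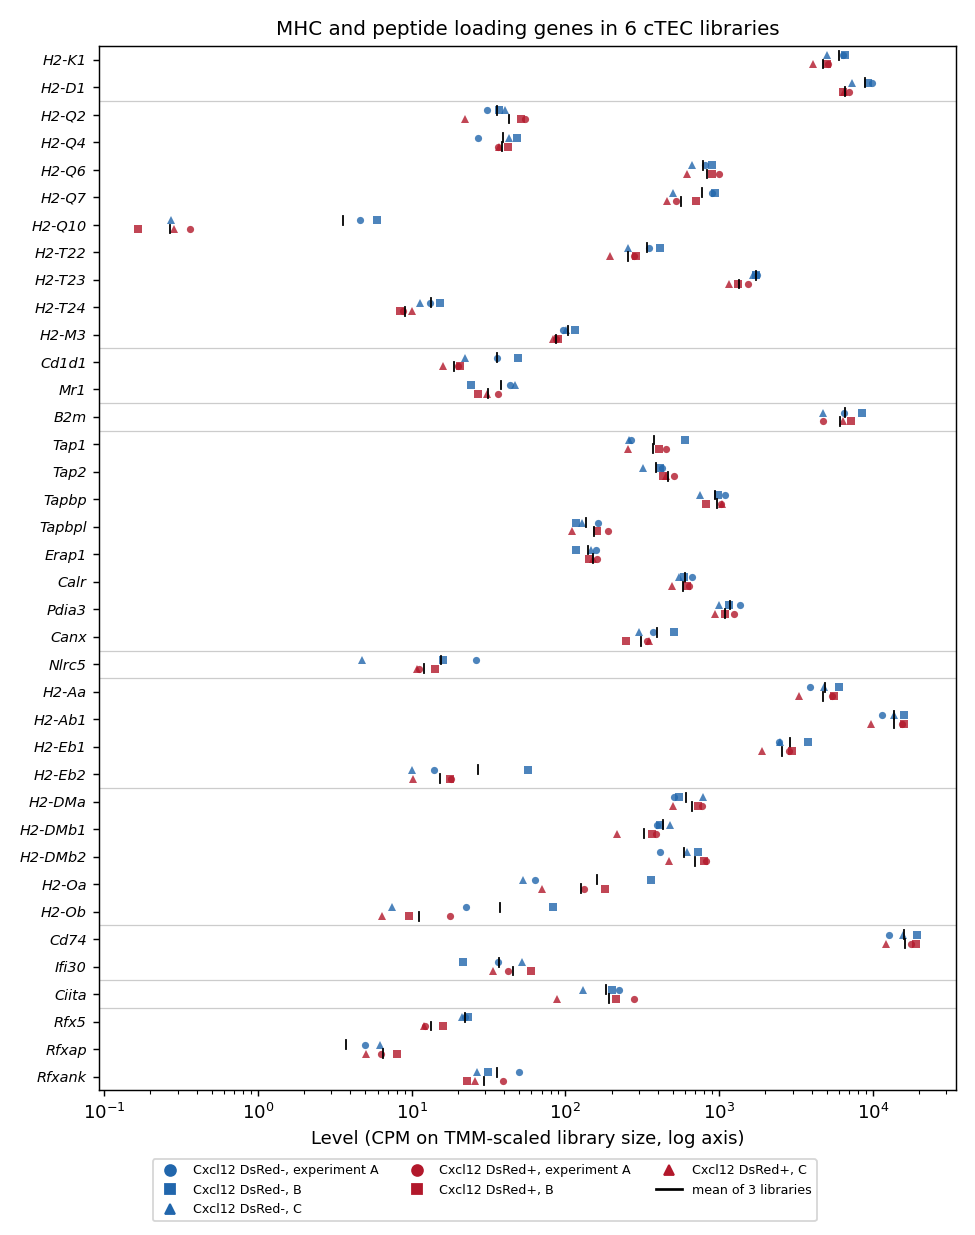
Level of each of the 38 tested genes in every library, in CPM on a log axis, with Cxcl12DsRed- in blue, Cxcl12DsRed+ in red, the experiment as the shape and the mean of 3 libraries as a black tick. Cd74 and H2-Ab1 lie furthest right in both subsets, and the colours overlap for 30 of the 38 genes. The Cxcl12DsRed- library of experiment B has no point for Rfxap, which was at 0 there.

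Among the class I heavy chains, the classical *H2-K1* and *H2-D1* present peptides to CD8+ T cells. *H2-K1* stood at 6402, 6568 and 4990.4 CPM in the Cxcl12DsRed- libraries of A, B and C and at 5107, 5049 and 4044 CPM in the Cxcl12DsRed+ libraries. It was higher in Cxcl12DsRed- in every experiment, though the subsets overlapped across experiments, and its log2 fold change was 0.34 (95% interval −0.13 to 0.81, edgeR adjusted p = 0.612). For *H2-D1* the values were 9902, 9268.5 and 7355 CPM in Cxcl12DsRed- and 6953, 6410.1 and 6460.1 CPM in Cxcl12DsRed+. All 3 Cxcl12DsRed- libraries lay above all 3 Cxcl12DsRed+ libraries, with a log2 fold change of 0.42 (95% interval −0.02 to 0.86, edgeR adjusted p = 0.448).

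The non-classical heavy chains present narrower sets of ligands. *H2-T23* encodes Qa-1, which binds leader peptides of other class I chains and is read by NK cell receptors, and it had 1763, 1737 and 1669 CPM in Cxcl12DsRed- against 1542, 1316 and 1153 CPM in Cxcl12DsRed+ (log2 fold change 0.37, 95% interval −0.05 to 0.78, edgeR adjusted p = 0.504). *H2-M3*, which presents formylated peptides of bacteria and mitochondria, had 96.8, 116 and 101 CPM against 87.4, 90.0 and 83.4 CPM (0.27, −0.15 to 0.69, edgeR adjusted p = 0.664). In both genes the subsets did not overlap. *H2-T24* also lay higher in every Cxcl12DsRed- library, at 11.3 to 15.4 CPM against 8.38 to 10.102 CPM, with a wider interval of −0.49 to 1.59. *H2-Q6*, *H2-Q7*, *H2-T22*, *H2-Q2* and *H2-Q4* overlapped between the subsets, with log2 fold changes from −0.24 (*H2-Q2*) to 0.47 (*H2-Q7*).

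*H2-Q10*, which encodes a secreted class I chain best known from liver, had the largest fitted fold change among the 38. It had 4.60, 5.93 and 0.271 CPM in Cxcl12DsRed- and 0.359, 0.167 and 0.283 CPM in Cxcl12DsRed+, from 199, 195 and 11 counts against 19, 8 and 11. The Cxcl12DsRed- libraries of A and B were high and that of C lay among the Cxcl12DsRed+ values. The log2 fold change was 3.72 with a 95% interval of 0.58 to 6.87 (edgeR adjusted p = 0.322). Of the stretches of 50 bases in its transcripts 19.1% occur in other genes too, 14% in *H2-Q7*.

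Outside the MHC, *Cd1d1* presents lipids to NKT cells and *Mr1* presents vitamin B metabolites to MAIT cells. *Cd1d1* had 35.9, 48.9 and 22.4 CPM in Cxcl12DsRed- and 20.0, 20.6 and 16.1 CPM in Cxcl12DsRed+, higher in all 3 without overlap (log2 fold change 0.92, 95% interval 0.06 to 1.78, unadjusted p = 0.0398, edgeR adjusted p = 0.391). *Mr1* had 43.9, 24.2 and 46.8 CPM against 36.4, 26.9 and 30.8 CPM, and the subsets overlapped (0.29, −0.50 to 1.07).

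Summed over the 12 heavy chain genes, Cxcl12DsRed- libraries held 15633 to 20294 CPM and Cxcl12DsRed+ libraries 13078 to 15592 CPM. The gap between the groups is small and depends on the scaling, since as a share of all counts in genes the lowest Cxcl12DsRed- library (1.613%) fell just below the highest Cxcl12DsRed+ library (1.616%). How far the heavy chain genes share sequence varied, and the share of 50-base stretches found in other genes was 53.5% for *H2-T22*, 36.4% for *H2-Q4*, 35% for *H2-Q6*, 26.5% for *H2-Q7*, 14.5% for *H2-T23*, 12.8% for *H2-D1*, 9.63% for *H2-K1*, 3.17% for *H2-T24* and 0.576% for *H2-M3*. It was 0 for *B2m*, *H2-Ab1*, *H2-Eb1* and *Cd74*. Both strands of the other transcripts were searched, so antisense genes at the same place count too. The largest partner of *H2-Q4* was such a gene, *Gm11131*, at 15.3%, and that of *H2-T22* was *H2-T10*, at 31.2%.

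The light chain, without which heavy chains do not reach the surface, showed no such order. *B2m* had 6492.5, 8467 and 4751 CPM in Cxcl12DsRed- and 4746, 7209.9 and 6386 CPM in Cxcl12DsRed+. The lowest value of each subset came from a different experiment, and the log2 fold change was 0.10 (95% interval −0.55 to 0.75, edgeR adjusted p = 0.952).

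For all 8 genes of peptide supply and loading the 95% interval lay within 2-fold in either direction, and their median log2 fold change was −0.0036. *Tap1* and *Tap2* encode both subunits of the peptide transporter. *Tap1* had 266, 604 and 260.5 CPM in Cxcl12DsRed- and 451, 403 and 255 CPM in Cxcl12DsRed+, with the highest value in Cxcl12DsRed- of experiment B (0.03, −0.90 to 0.96). *Tap2* had 423, 413 and 322 CPM against 509, 429.8 and 449 CPM, and was the one gene of the 38 with every Cxcl12DsRed- library below every Cxcl12DsRed+ library (−0.26, −0.70 to 0.17, edgeR adjusted p = 0.690). Tapasin, encoded by *Tapbp*, tethers class I to the transporter and edits its peptides, and it had 1093, 984 and 748 CPM against 1022, 821 and 1051 CPM (−0.03, −0.53 to 0.46). The peptide trimming protease *Erap1* had 157, 116 and 146 CPM against 160.4, 143 and 151 CPM, lower in Cxcl12DsRed- in each experiment but overlapping across them (−0.11, −0.55 to 0.33). The chaperones *Calr*, *Pdia3* and *Canx* and the peptide editor *Tapbpl* had log2 fold changes from −0.17 (*Tapbpl*) to 0.34 (*Canx*). Exons of *Tap1* overlap those of *Psmb9* on the other strand over 212 bases, and those of *Erap1* overlap *Cast* over 834 bases. The use of strand in counting is not given in the sources used here.

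*Nlrc5*, the class I transactivator, was a low gene. It had 26.0, 15.9 and 4.72 CPM in Cxcl12DsRed- and 11.1, 14.2 and 10.8 CPM in Cxcl12DsRed+, so the Cxcl12DsRed- libraries spanned the range of the others on both sides (0.37, −1.16 to 1.90, edgeR adjusted p = 0.921).

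Without overlap between the subsets, 7 of the 38 genes lay higher in Cxcl12DsRed- (*H2-D1*, *H2-T23*, *H2-T24*, *H2-M3*, *Cd1d1*, *H2-DMb1* and *Rfx5*) and 1 lower (*Tap2*). Among all genes tested 9.73% lay higher in this way and 9.32% lower. With library totals in place of scaled library sizes *H2-DMb1* overlapped and the other 7 did not. An exact permutation test of 3 against 3 libraries cannot go below 0.1 (two-sided), which is the value these 8 genes have. In all 3 experiments 13 of the 38 were higher in the Cxcl12DsRed- library and 2 lower (*Tap2* and *Erap1*). Among all genes tested 17.5% were higher in all 3 and another 17.5% lower.

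The chains of I-A and the I-E beta chain gene *H2-Eb1* differed little between the subset means, while their libraries spread. *H2-Aa* and *H2-Ab1* encode the alpha and beta chain of I-A, the class II molecule of C57BL/6 mice, which make no I-E at the surface for want of its alpha chain. *H2-Ab1* had 11377, 15826 and 13693 CPM in Cxcl12DsRed- and 15418, 15866 and 9776 CPM in Cxcl12DsRed+ (log2 fold change −0.0058, 95% interval −0.61 to 0.60, edgeR adjusted p = 0.997). *H2-Aa* had 3874, 5996 and 4826 CPM against 5380.3, 5549 and 3317 CPM (0.04, −0.60 to 0.69). The I-E beta chain gene *H2-Eb1* had 2447, 3765 and 2467 CPM against 2831, 2980 and 1889 CPM (0.17, −0.46 to 0.81). In all 3 genes the lowest library was Cxcl12DsRed+ of experiment C and the next lowest Cxcl12DsRed- of experiment A. The 2 chains of I-A kept close to a fixed proportion, and *H2-Ab1* over *H2-Aa* was 2.64 to 2.95 in CPM over the 6 libraries.

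The invariant chain *Cd74*, which fills the class II groove until the endosome, had the same pair of lowest libraries. It had 12805, 19219 and 15569 CPM in Cxcl12DsRed- and 17678, 19009 and 12073 CPM in Cxcl12DsRed+ (−0.03, −0.64 to 0.57, edgeR adjusted p = 0.983). Its ratio to *H2-Ab1* was 1.13 to 1.23 in CPM in all 6 libraries. *Ifi30*, a thiol reductase that opens disulfide bonds of antigens in the endosome, had 36.5, 21.6 and 52.4 CPM against 42.2, 59.7 and 33.9 CPM, and the subsets overlapped (−0.30, −1.23 to 0.63).

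H2-DM, made of the *H2-DMa* product and a beta chain from *H2-DMb1* or *H2-DMb2*, removes the invariant chain remnant and edits class II peptides. *H2-DMa* had 506, 550.3 and 781 CPM in Cxcl12DsRed- and 771, 725 and 500.2 CPM in Cxcl12DsRed+ (−0.12, −0.72 to 0.48). *H2-DMb1* had 394, 413 and 478 CPM against 389, 366 and 216 CPM, where the lowest Cxcl12DsRed- library was just above the highest Cxcl12DsRed+ library (0.40, −0.20 to 1.01, edgeR adjusted p = 0.645). For *H2-DMb2* the values were 413, 729 and 618 CPM against 823, 799 and 472 CPM (−0.25, −0.96 to 0.46). The ratio of *H2-DMb2* to *H2-DMb1* was 2.11 to 2.19 in the Cxcl12DsRed+ libraries and 1.05 to 1.76 in the Cxcl12DsRed- libraries. It was picked after the values were seen, so no test is given, and the paralogs share sequence (22.7% of the 50-base stretches of *H2-DMb1* and 25.9% of those of *H2-DMb2* occur in other genes).

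H2-O, which restrains H2-DM, is made of the *H2-Oa* and *H2-Ob* products and is best known from B cells and medullary epithelium. *H2-Oa* had 63.9, 361 and 52.7 CPM in Cxcl12DsRed- and 131, 180.2 and 69.9 CPM in Cxcl12DsRed+ (0.32, −1.50 to 2.15, edgeR adjusted p = 0.947). *H2-Ob* had 22.5, 82.8 and 7.43 CPM against 17.7, 9.66 and 6.42 CPM (1.74, −0.32 to 3.81, edgeR adjusted p = 0.529). Both were highest in Cxcl12DsRed- of experiment B, and their intervals were wide, from 0.353-fold to 4.45-fold for *H2-Oa* and from 0.798-fold to 14.0-fold for *H2-Ob*. *H2-Eb2*, a beta chain paralog of little known function, had the same high library, with 13.9, 56.7 and 10.01 CPM against 18.1, 17.7 and 10.3 CPM (0.81, −0.85 to 2.47, edgeR adjusted p = 0.776).

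*Ciita*, whose product turns on the class II genes, had 223, 200.3 and 130.1 CPM in Cxcl12DsRed- and 279, 213 and 88.7 CPM in Cxcl12DsRed+. In both subsets experiment C was lowest and A highest, and the log2 fold change was −0.07 (95% interval −1.08 to 0.94, edgeR adjusted p = 0.979). Of the RFX complex, *Rfx5* had 22.1, 23.3 and 21.1 CPM against 12.3, 16.0 and 12.1 CPM, higher in Cxcl12DsRed- without overlap (0.72, −0.09 to 1.53, edgeR adjusted p = 0.4996). Its exons share 1471 bases with an antisense gene that had 0 to 9 counts per library. *Rfxank* had 22.9 to 49.6 CPM over the 6 libraries and overlapped between subsets, and 29% of its 50-base stretches occur in the neighbouring *Nr2c2ap*. *Rfxap* had 4.99 to 8.07 CPM in 5 libraries and 0 counts in Cxcl12DsRed- of experiment B, where a count of 0 allows up to 0.0913 CPM by counting error alone.

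Most of the class II genes took opposite directions in experiments A and C. In experiment A 10 of the 12 were lower in the Cxcl12DsRed- library, with a median log2 ratio of −0.41, against 49.7% of all genes tested that were lower there. In experiment B the median was 0.06. In experiment C 10 of the 12 were higher in the Cxcl12DsRed- library, with a median of 0.44, against 51.0% of all genes tested. Lower in A and higher in C were 8 of the 12, *H2-Aa*, *H2-Ab1*, *H2-Eb1*, *H2-DMa*, *H2-DMb2*, *Cd74*, *Ifi30* and *Ciita*, against 23.4% of all genes tested. This pattern was picked after the values were seen, so no test is given. The 12 genes were read from the same libraries and are not replicates of it. Of the 23 class I genes, 7 were lower in the Cxcl12DsRed- library of A and 16 higher in that of C, and the difference between the classes was not tested. For 6 of the 12 class II genes Cxcl12DsRed- of A and Cxcl12DsRed+ of C were the lowest libraries. These are the libraries with the highest tuft cell sum (8 of 8 genes highest there, 2898 CPM) and the highest endothelial sum (10 of 10 genes highest there, 5661 CPM), whose part in the class II values was not tested. The sum of 8 markers of medullary thymic epithelium was 10898 CPM in Cxcl12DsRed- against 12339 CPM in Cxcl12DsRed+ in A, and 7113 against 3169 CPM in C. Its genes did not move together. In A *Ccl21a* (6428 against 7305 CPM), *Krt5* (2036 against 3317 CPM) and *Fezf2* (9.61 against 26.0 CPM) were lower in Cxcl12DsRed-. There *Krt14* (2095 against 1685 CPM), *Spib* (310 against 2.74 CPM), *Tnfrsf11a* (12.3 against 3.21 CPM) and *Cd80* (6.70 against 0.0189 CPM) were higher, and *Aire* had 0 counts in both. The part of these markers was not tested either.

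**Figure D4:**
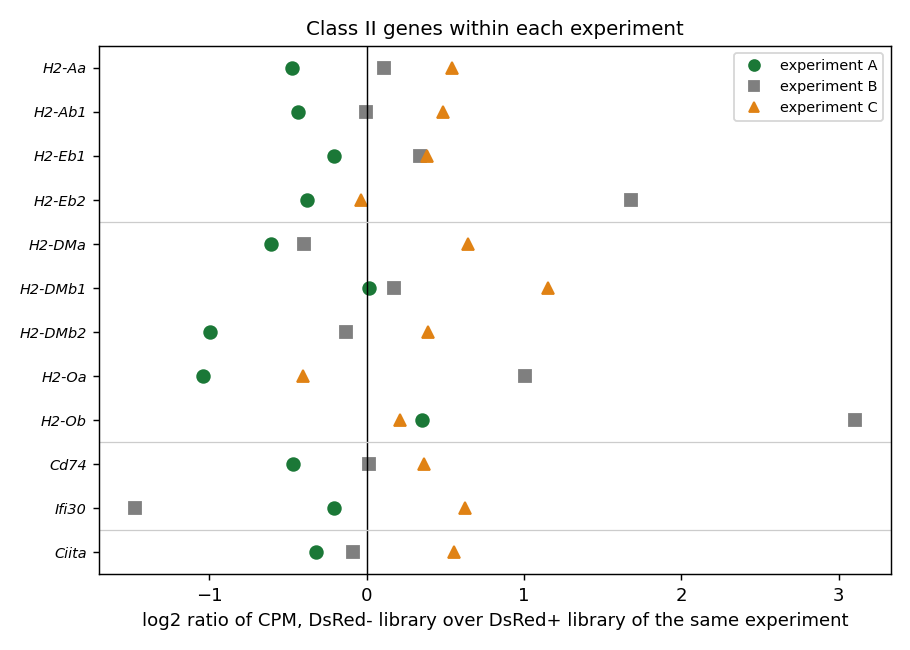
Log2 ratio of the Cxcl12DsRed- over the Cxcl12DsRed+ library of the same experiment for the 12 class II genes, with green circles for A, grey squares for B and orange triangles for C. For 8 of the 12 genes A lies below 0 and C above 0, and H2-Ob, H2-Eb2 and H2-Oa lie far right in B.

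The Cxcl12DsRed- library of experiment B was the highest of all 6 for 18 of the 38 genes, against 22.5% of all genes tested, a pattern picked after the values were seen. They included *H2-Oa*, *H2-Ob*, *H2-Eb2* and *Tap1*. Of 8 markers of medullary thymic epithelium 4 were highest in that library, among them *Aire* (16.5 CPM there, 0 to 4.98 CPM elsewhere) and *Fezf2* (122 CPM there, 4.33 to 35.3 CPM elsewhere), though the sum of all 8 was 7113 to 10898 CPM in Cxcl12DsRed- and 3169 to 13350 CPM in Cxcl12DsRed+. The sum of 12 leukocyte markers was also highest there, at 864 CPM, of which *Lyz2* made 803 CPM. Elsewhere this sum was 145 and 540.0 CPM in the other Cxcl12DsRed- libraries and 40.1 to 104 CPM in Cxcl12DsRed+. The 12 genes did not move together, as 3 were highest in Cxcl12DsRed- of B and 5 had 0 counts in that library. *Ptprc*, which encodes CD45, was at 8.55 CPM in it, within its range of 0.618 to 23.5 CPM in the other libraries. The sum of 6 B cell genes was 43.4 CPM there and 42.0 CPM in Cxcl12DsRed- of A, while *Pax5*, which encodes a factor that defines B cells, had 0 counts in all 6 libraries. The part of these markers in the values was not tested.

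The rest of the pathway gives the context. Of 26 further genes of antigen processing and class I and class II control, 25 were tested, and 1 passed, *Prss16*, which encodes a serine protease of cTEC endosomes that makes class II peptides. It had 74.5, 163 and 153 CPM in Cxcl12DsRed- and 2412, 4193 and 2273 CPM in Cxcl12DsRed+ (log2 fold change −4.51, SE 0.43, edgeR adjusted p = 0.0319). All Cxcl12DsRed- libraries lay below all Cxcl12DsRed+ libraries. The call held under every alternative that kept all 6 libraries, with the experiment as a block among them. In fits without 1 library or 1 experiment no gene of this list was called, except in the fit without Cxcl12DsRed- of C. Such fits rest on fewer libraries. The next smallest p-values were those of *Ctsl* (−1.43, edgeR adjusted p = 0.0956), which encodes the cathepsin that degrades the invariant chain in cTEC, and of *Cd83* (−5.25, edgeR adjusted p = 0.136), whose product stabilizes class II at the surface. *Ctsl* had 1820.3, 1822 and 1979 CPM against 5051, 6966 and 3128 CPM, and *Cd83* 10.5, 0.0913 and 8.85 CPM against 164, 355 and 225 CPM, so both were lower in every Cxcl12DsRed- library. The likelihood ratio test, which called 5.65% of all genes tested, called 4 genes of this list, these 3 and *Ctss*. The latter encodes an endosomal cathepsin best known from myeloid cells and B cells, and was named after its values were seen. *Ctss* had 113, 177 and 14.2 CPM in Cxcl12DsRed- against 6.52, 13.3 and 4.38 CPM. Its order in Cxcl12DsRed- was that of the leukocyte sum, which was mostly *Lyz2* there and whose part was not tested. DESeq2 called 6, these 4 and the immunoproteasome subunits *Psmb10* and *Psmb9*, which help cut class I peptides and were also named after their values were seen. The share of all genes that DESeq2 called is not given here, so this count has nothing to be set against. *Psmb10* had 297, 265 and 234 CPM against 409.6, 634 and 441 CPM (−0.90, edgeR adjusted p = 0.139), and *Psmb9* had 419, 308 and 342 CPM against 552, 747 and 536 CPM (−0.78, edgeR adjusted p = 0.177), both lower without overlap. Of the 25, 6 lay lower and 2 higher in this way, against 9.32% and 9.73% of all genes tested. Over the 25 the log2 fold changes had a median of 0.14.

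Of 24 further class I and class I-like genes, 21 were in the table, 12 were tested and none passed by edgeR's quasi-likelihood test, with 1 at an unadjusted p under 0.05 and 1 (*H2-M9*) called lower by the likelihood ratio test and by DESeq2. The 3 with the smallest p were *H2-M9*, *Raet1e* and *H2-K2*. *H2-M9* had 0.0231 CPM in Cxcl12DsRed- of A, 0 counts in B and C, which allow up to 0.0913 and 0.0738 CPM, and 6.18, 1.59 and 43.5 CPM in Cxcl12DsRed+ (edgeR adjusted p = 0.0723), highest in the library with the high endothelial sum, whose part was not tested. *Raet1e*, which encodes a ligand of the NKG2D receptor, had 4.78, 6.39 and 0.0246 CPM against 0.0378, 0.0209 and 0.567 CPM (edgeR adjusted p = 0.527), and *H2-K2* had 20.1, 10.3 and 12.5 CPM against 6.18, 1.44 and 9.33 CPM (edgeR adjusted p = 0.595).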

How the data were processed

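RNA of 6 sorted cTEC libraries was made into cDNA with a SMARTer Ultra Low Input kit and sequenced. Per the labels and methods, the authors used Trimmomatic 0.36 for trimming, STAR 2.7.3a for alignment to mm10 and HTSeq, in its intersection-nonempty mode, for counting by gene. They deposited whole-number counts, not normalized, in 1 table of 39277 entries, of which 92 spike-in names, 5 HTSeq summaries and 1 reporter entered neither library sizes nor tests. Relative to the counts in genes, reads in no gene made 5.87% to 9.35%, ambiguous reads 1.21% to 1.38% and reads aligned to several places 5.61% to 9.07%. Symbols and exon lengths came from a GENCODE annotation of GRCm38, which held 37693 of the gene IDs, and the authors' annotation release is not given in the sources used here.

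Counts were tested with edgeR 4.0.16 in R 4.3.3 over all 15576 genes kept by filterByExpr (minimum count 10), with TMM scaling, a prior count of 0.125, the quasi-likelihood test of Cxcl12DsRed- against Cxcl12DsRed+ without a block, and Benjamini-Hochberg adjustment at 0.05. Intervals are 95% and come from the same fit, as do the SE. Other tests tried were voom in limma 3.58.1, DESeq2 1.42.0 and edgeR's likelihood ratio test. Other settings were a block for the experiment (in both edgeR tests), scaling by RLE or by totals alone, a filter at a mean of 1 CPM or none, and fits without 1 library or 1 experiment. DESeq2 gave no adjusted p for 532 genes, which stayed without one. Depth was 34574900 to 51042679 counts per library, and limits from a count of 0 (a floor of 3 counts) cover counting error alone. The labels name the same experiments A, B and C in both subsets, which was taken as the pairing. As a check, each library's deviation from its subset's mean was correlated across genes with that of its partner (r = 0.0106 for A, 0.0778 for B, 0.0716 for C) and with that of the libraries of other experiments (r = −0.0948 to 0.00374).

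The 39 genes, their sublists, the further pathway lists and the marker lists were chosen with earlier results of these data known. Values in every library were given for a set of genes named by role, and for any other with an unadjusted p under 0.05, and the rest by range. Values of *H2-DMb2* and *H2-Eb2* were added after they were seen. Of the further lists, genes that passed and the 3 with the smallest p were named.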

Additional observations from a re-analysis of the deposited data

How the results depend on the processing

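None of the 38 genes was called under any of 18 alternatives, and the lowest adjusted p of any was 0.0566, for *H2-Q10* by DESeq2. The likelihood ratio test called 5.65% of all genes tested, and the quasi-likelihood test with the block called 73 of 15576. For the other alternatives that share is not given here, so their counts of 0 have nothing to be set against. The experiment as a replicate block changed no call of a member (0 called in either test). Of the other antigen presentation genes, 1 was called, against 4 by the likelihood ratio test, 4 by that test with the block, 6 by DESeq2, and 0 to 2 when a library or an experiment was left out. Of 684 member fold changes, 78 turned sign, and 16 genes never did. Log2 fold changes that turned with the block (quasi-likelihood and likelihood ratio) were −0.0058 and −0.0058 for *H2-Q4*, −0.048 and −0.048 for *Tap1*, 0.014 and 0.014 for *H2-Ab1*, −0.16 and −0.16 for *H2-Oa*, and 0.046 and 0.046 for *Ciita*. With voom they were −0.032 for *H2-Q4*, −0.078 for *Tap1*, 0.0062 for *H2-Ab1*, −0.24 for *H2-Oa* and 0.014 for *Ciita*. With library totals they were −0.011 for *H2-Q4*, −0.035 for *Tap1*, −0.0066 for *Calr* and −0.0048 for *H2-Aa*. Without a filter they were −0.0069 for *H2-Q4* and −0.018 for *Tap1*, and *H2-Ab1* was at 0.00099 by DESeq2 and by RLE size factors. Leaving out a library or an experiment turned 22 genes, with ranges of −0.68 to 0.033 for *H2-Q2*, −0.14 to 0.21 for *H2-Q4*, −0.31 to 0.019 for *H2-Q6*, −0.12 to 0.29 for *B2m*, −0.49 to 0.35 for *Tap1*, −0.19 to 0.14 for *Tapbp*, −0.23 to 0.00079 for *Erap1*, −0.10 to 0.10 for *Calr*, −0.044 to 0.21 for *Pdia3*, −0.023 to 0.55 for *Canx*, −0.33 to 0.80 for *Nlrc5*, −0.20 to 0.25 for *H2-Aa*, −0.24 to 0.17 for *H2-Ab1*, −0.066 to 0.32 for *H2-Eb1*, −0.36 to 1.20 for *H2-Eb2*, −0.53 to 0.090 for *H2-DMa*, −0.54 to 0.047 for *H2-DMb2*, −1.13 to 0.74 for *H2-Oa*, −0.25 to 0.13 for *Cd74*, −0.84 to 0.24 for *Ifi30*, −0.46 to 0.24 for *Ciita* and −0.041 to 0.52 for *Rfxank*. The cause of these turns was not tested.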
